A study of Homo sapiens with 2 samples.

Results

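OAZ1 encodes antizyme 1, and in these data most of its reads lay in a single transcript model that the annotation does not hold. The gene was selected on its read counts, because of that dominant model, so the shares and levels of OAZ1 given here describe the 2 libraries and carry no test. All rows of the deposited table that name OAZ1 were taken: 56 transcript models of the 237608 in the table, for 1 gene of the 16645 annotated genes with a read. RNA came from untreated GM12878, an established human line of B lymphoblasts immortalised by Epstein-Barr virus, and there was 1 group of 2 replicate libraries with no other condition. Native RNA strands were read from the 3′ end by Oxford Nanopore direct RNA sequencing (kit SQK-RNA002, flow cell FLO-MIN106D), so 1 read stands for 1 RNA strand and counts were not divided by length. The labels give the replicate numbers and do not say whether the replicates were separate cultures, so differences between them may be technical.

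Antizyme is the feedback inhibitor of polyamine synthesis. It binds ornithine decarboxylase, the first enzyme of the pathway, sends it to the proteasome, and also restrains polyamine uptake. Its mRNA is a textbook case of programmed ribosomal frameshifting: the first open reading frame ends early at a stop codon, and the full protein is made when ribosomes slip forward by 1 base there, which high polyamine levels favour. A gene annotation that has to show the complete coding sequence therefore faces an mRNA whose reading frame is broken on purpose.

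GENCODE release 29 writes this frameshift as a gap of 1 base. OAZ1 (ENSG00000104904.12) lies on the plus strand of chromosome 19 from 2269509 to 2273490 (GRCh38) and has 11 annotated models, of which 3 are protein coding. OAZ1-211 and OAZ1-202, the 2 models with the coding sequence of antizyme from its start to its stop codon, each leave out the base at position 2271443 and so have 6 exons each, with the second exon and the third separated by that single base. The third protein-coding model, OAZ1-204, starts at another first exon and has no such gap. The sequences around the left-out base are printed for the 3 antizyme genes because the exon numbers below turn on it. Each runs 5′ to 3′ along the mRNA, from the transcript sequences of GENCODE release 29, first from a model that keeps the base, with the stop codon in capitals, and then from a coding model that leaves it out, with the 2 remaining bases of that codon in capitals. The windows are chr19:2271423-2271463 on the plus strand for OAZ1, chr15:64691495-64691535 on the minus strand for OAZ2 and chr1:151767204-151767244 on the plus strand for OAZ3.
OAZ1-208: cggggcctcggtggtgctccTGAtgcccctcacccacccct
OAZ1-211: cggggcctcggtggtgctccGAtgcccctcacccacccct
OAZ2-209: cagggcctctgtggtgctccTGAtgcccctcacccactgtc
OAZ2-201: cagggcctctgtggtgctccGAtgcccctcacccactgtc
OAZ3-205: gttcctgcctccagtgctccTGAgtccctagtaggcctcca
OAZ3-201: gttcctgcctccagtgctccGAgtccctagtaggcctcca

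In all 3 printed pairs the left-out base was the T of a TGA stop codon that follows the codon TCC. Of the 41 bases of the OAZ1 window, 35 were the same in OAZ2, including an unbroken run of 27 bases across the site. OAZ3, the testis antizyme, had 17 identical bases and a run of 10 across the site. With the base kept in OAZ1-211, the frame that opens at its start codon ran for 68 codons and stopped at this TGA. With the base left out it ran for 228 codons to a TAG, over the 684 bases of annotated coding sequence. The corresponding numbers were 32 and 189 codons for OAZ2-201 and 31 and 190 codons for OAZ3-201.

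No read of OAZ1 was assigned to a protein-coding model. Replicate 1 had 0 of 1506 reads in OAZ1-202, OAZ1-204 and OAZ1-211, which allows a share of up to 0.199%, and replicate 2 had 0 of 1733, which allows up to 0.173%. These limits, and all Wilson intervals given here, cover counting error only. The 8 annotated models with a read were 7 retained-intron models and OAZ1-207, which is annotated as a target of nonsense-mediated decay. Among 1821 protein-coding genes with at least 100 reads in each replicate, 64 (3.51%) also had no read in any protein-coding model, while the median gene had 46.8% of its reads there in replicate 1 and 28.9% in replicate 2.

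**Figure D1:**
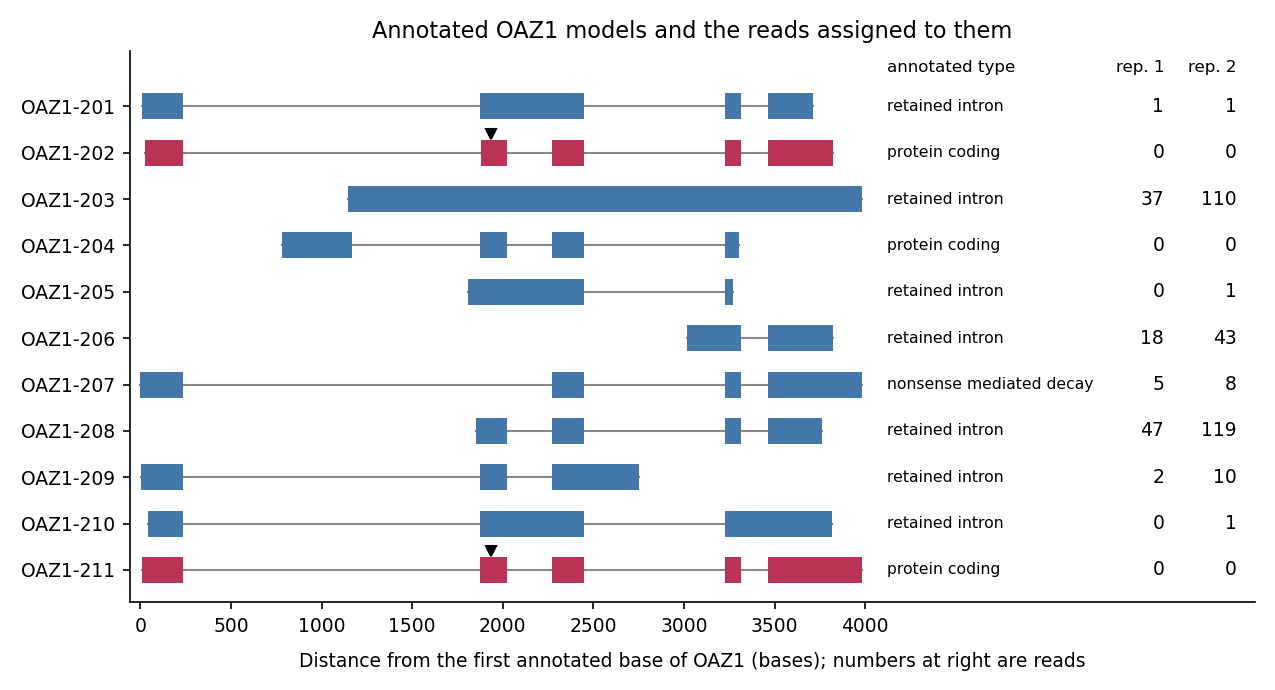
The 11 annotated OAZ1 models drawn to scale, with distance in bases from the first annotated base of the gene on the horizontal axis, exons as boxes and introns as lines; the numbers at the right are reads in replicates 1 and 2. Red models (OAZ1-202 and OAZ1-211) have the 1-base gap, marked by a black triangle because it is too narrow to draw, and both have 0 reads, whereas OAZ1-208 has 47 and 119.

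The reads were in a 5-exon model instead. ENCODEHT000304615 has 5 exons and 1001 bases and is listed as NIC, the TALON category for models that join annotated splice sites in a combination not annotated. It received 1217 reads in replicate 1 and 1069 in replicate 2, or 895 and 707 CPM (reads scaled to the library total), averaging 801 CPM ± 132 (SD, n = 2). That was 80.8% of OAZ1 in replicate 1 (95% Wilson interval 78.7 to 82.7%) but 61.7% in replicate 2 (59.4 to 63.9%), averaging 71.2% ± 13.5 (SD, n = 2). The intervals do not overlap, and replicate 2 was lower by 19.1 percentage points. All NIC models of OAZ1 together held 84.1% and 64.6% of its reads, and they made up 2.28% of the NIC reads of all genes in replicate 1 and 2.58% in replicate 2.

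The exon number of this model is that of the annotated coding models once the gap is closed. Closing it turns OAZ1-211 from 6 exons and 1148 bases into 5 exons and 1149 bases, and OAZ1-202 from 969 into 970 bases, also with 5 exons. The 1001 bases of the NIC model lie between these lengths. So do other, thinly read 5-exon models, such as ENCODEHT000306785 (994 bases), which is also listed as NIC. Another is ENCODEHT000307508 (988 bases), which is listed with an unannotated splice site. Exon number and length therefore do not single out 1 model. In OAZ1-211 the 5 exons would be 225, 146, 173, 86 and 519 bases long. All 4 of the remaining junctions of OAZ1-211 are annotated, but no annotated OAZ1 model holds them in an unbroken chain, which is the definition of NIC. The table gives an exon number and a length but no coordinates, so whether the reads of ENCODEHT000304615 follow this chain was not tested.

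Shorter 3′ runs of the same chain would fall into other categories. Its last 3 junctions, over 4 exons, are exactly those of OAZ1-208, a retained-intron model of 726 bases. Its last junction is that of OAZ1-206, a 2-exon model of 657 bases. The last 2 junctions, over 3 exons, stand at the end of 5 annotated models and make up no annotated model alone, so a model with only these would be an incomplete splice match (ISM) of the suffix kind, which keeps the 3′ end of an annotated chain. OAZ1-203, the annotated model with 1 exon, is not such a run: it is an unspliced exon of 2832 bases that covers the introns between. A length in the table belongs to the model and not to its reads.

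OAZ1-208, OAZ1-203 and OAZ1-206 were the known models of OAZ1 with the most reads. OAZ1-208 had 47 reads in replicate 1 and 119 in replicate 2, which were 3.12% (2.35 to 4.13%) and 6.87% (5.77 to 8.16%) of the gene. OAZ1-203 had 37 and 110 reads, 2.46% (1.79 to 3.37%) and 6.35% (5.29 to 7.59%). OAZ1-206 had 18 and 43 reads, 1.20% (0.757 to 1.88%) and 2.48% (1.85 to 3.33%), with intervals that overlap slightly. In each of the 3 the share was higher in replicate 2.

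The largest model after the dominant one was the suffix model ENCODEHT000312049, with 3 exons and 1634 bases. That is longer than the 1149 bases of the whole gap-closed OAZ1-211, whose last 3 exons have 173, 86 and 519 bases. Which annotated junctions ENCODEHT000312049 holds was not tested. In reads, ENCODEHT000312049 was second among the models of the gene. It had 75 reads in replicate 1, 4.98% of the gene (3.99 to 6.20%), and 241 in replicate 2, 13.9% (12.4 to 15.6%). In all, 3 suffix models had 3 exons, with 76 and 249 reads together. The dominant NIC model, OAZ1-208, the 3-exon suffix models, OAZ1-206 and OAZ1-203 together held 92.6% of OAZ1 in replicate 1 and 91.7% in replicate 2. These classes include the most-read models of the gene, so a high and similar sum in both replicates follows largely from that choice.

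The exon number of the models read differed between the replicates. Models with 5 exons held 1308 reads (86.9%, 85.1 to 88.5%) in replicate 1 and 1162 (67.1%, 64.8 to 69.2%) in replicate 2. Models with 3 exons held 5.25% (4.23 to 6.49%) and 15.2% (13.6 to 16.9%) of reads, those with 4 exons 4.12% (3.22 to 5.24%) and 8.31% (7.10 to 9.70%), and the single-exon model 2.46% and 6.35%. The mean exon number per read was 4.72 in replicate 1 and 4.27 in replicate 2. Of the 13 OAZ1 models with at least 10 reads, the 6 with fewer than 5 exons all had a higher CPM in replicate 2, by 1.44 to 4.50 times. Of the 7 with 5 exons, 3 were higher and 4 lower, with ratios of replicate 2 to replicate 1 between 0.643 and 1.50.

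**Figure D2:**
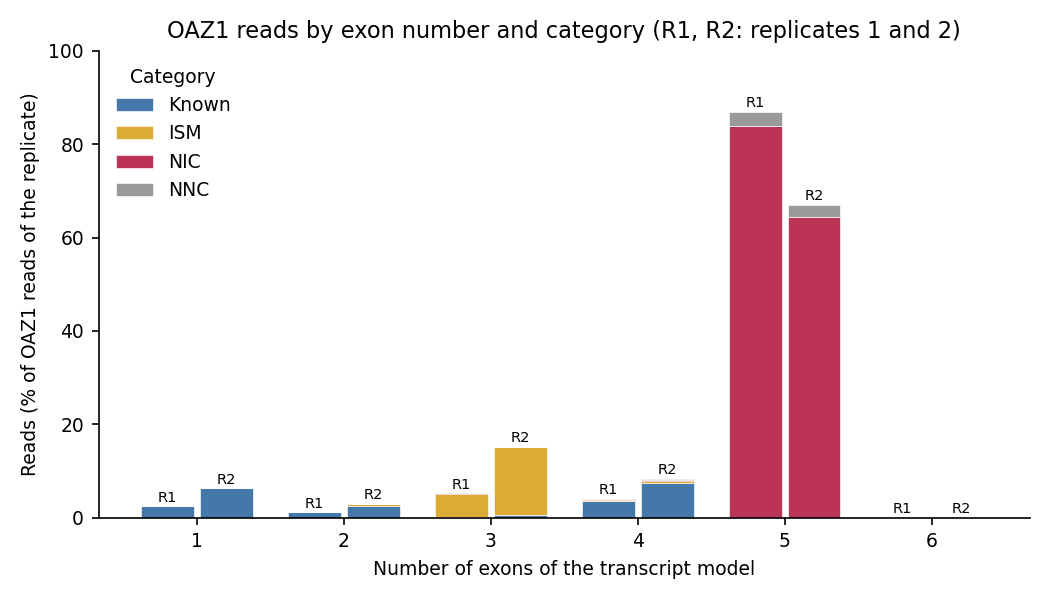
Stacked bars of OAZ1 reads, as a percentage of the OAZ1 reads of each replicate, by the exon number of their model on the horizontal axis; R1 and R2 are replicates 1 and 2, and colours are the categories of the table. The bar at 5 exons is almost all NIC and stands at 86.9% in R1 and 67.1% in R2, while the bars at 1, 2 and 4 exons are mainly known models and the bar at 3 exons mainly ISM, all higher in replicate 2.

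Known models, led by OAZ1-208, OAZ1-203 and OAZ1-206, held more of OAZ1 in replicate 2. Known models had 110 reads in replicate 1, 7.30% of the gene (6.10 to 8.73%), and 293 in replicate 2, 16.9% (15.2 to 18.7%), averaging 12.1% ± 6.79 (SD, n = 2). ISM models had 79 reads, 5.25% (4.23 to 6.49%), and 268 reads, 15.5% (13.8 to 17.2%). The known share of OAZ1 was higher in replicate 2 by 9.60 percentage points, opposite to most genes. Over the 1912 annotated genes with at least 100 reads in each replicate, the known share had a median difference of -10.3 percentage points, 132 genes (6.90%) had a higher known share in replicate 2, and 6 genes had a larger increase than OAZ1. The ISM share of OAZ1 was higher by 10.2 percentage points, beside a median difference of 7.43 over the same genes, 80.6% of which had a higher ISM share in replicate 2. The median ISM share of these genes was 19.1% in replicate 1 and 30.1% in replicate 2, and the part of this general shift in the OAZ1 values was not tested.

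**Figure D3:**
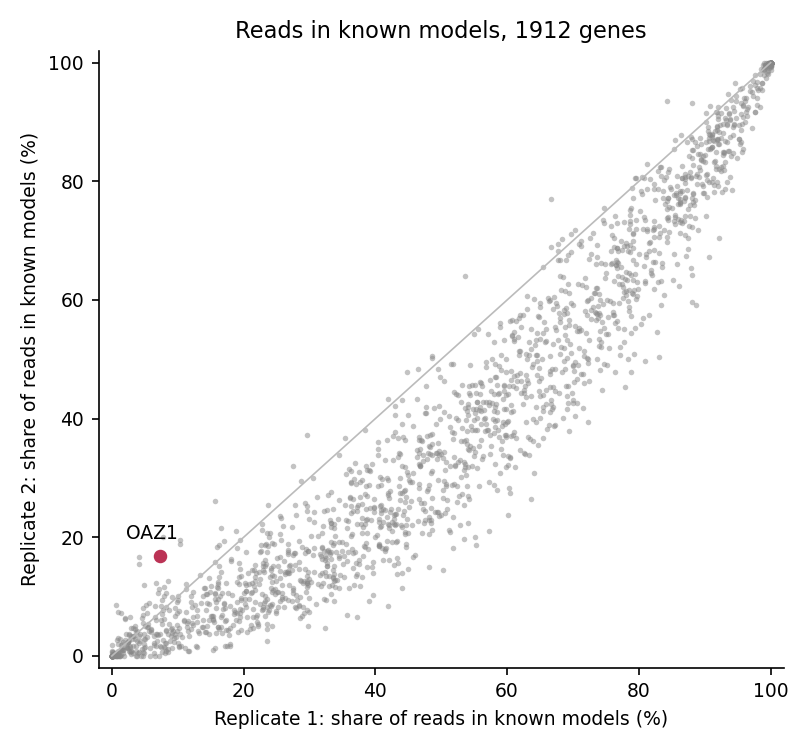
Share of reads in known models in replicate 1 (horizontal, %) and replicate 2 (vertical, %), 1 point per gene for the 1912 genes with at least 100 reads in each replicate; the grey line marks equal shares. Most genes lie below the line, and OAZ1 (red, 7.30% and 16.9%) lies above it.

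The remaining models of OAZ1 were many and thinly read. Of the 56 models, 35 had a read in replicate 1 and 43 in replicate 2, 22 had a read in both, and 32 rested on 1 read. The 14 other NIC models shared 50 reads in replicate 1 and 51 in replicate 2. The largest of them were ENCODEHT000304672 (5 exons, 874 bases, 21 and 18 reads), ENCODEHT000306785 (5 exons, 994 bases, 13 and 18 reads) and ENCODEHT000309506 (5 exons, 918 bases, 8 and 7 reads). The 23 models with an unannotated splice site (NNC) shared 50 and 52 reads, 3.32% (2.53 to 4.35%) and 3.00% (2.30 to 3.91%) of the gene. Their largest were ENCODEHT000307508 (5 exons, 988 bases, 21 and 15 reads), ENCODEHT000304760 (5 exons, 872 bases, 9 and 15 reads) and ENCODEHT000309469 (5 exons, 968 bases, 6 and 9 reads). So the intervals of the NNC share overlapped between replicates, while those of the dominant model did not. The 21 models with 5 exons, 8 NIC and 13 NNC, ranged from 748 to 1308 bases.

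A few annotated models with an alternative structure were also read. OAZ1-207, in which the first exon is joined directly to the exon after the frameshift exon and the frameshift site is absent, had 5 reads in replicate 1 and 8 in replicate 2, 0.332% (0.142 to 0.775%) and 0.462% (0.234 to 0.908%). OAZ1-209, with 3 exons, had 2 and 10 reads, and OAZ1-201, which retains the intron after the frameshift exon, had 1 read in each replicate. OAZ1-205 and OAZ1-210 had 0 and 1 read each. ISM models of the prefix kind, which keep the 5′ end, had 1 read in replicate 1 and 13 in replicate 2, against 78 and 255 in suffix models. No OAZ1 model was listed as genomic, the category for reads that overlap a gene without matching its splicing.

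OAZ1 as a whole was abundant, and its total differed little between the libraries. Its level was 1107 CPM in replicate 1 and 1147 CPM in replicate 2, averaging 1127 CPM ± 28.2 (SD, n = 2), from 1360368 and 1510998 reads per library, where 1 read was worth 0.735 and 0.662 CPM. It ranked 145th of 14734 genes with a read in replicate 1 and 144th of 15322 in replicate 2, with a log2 ratio of replicate 2 to replicate 1 of 0.05. The dominant model was lower in replicate 2, at 707 against 895 CPM, while the gene was not. In bulk RNA, fewer cells of a type and less RNA per cell cannot be told apart. All 7 markers of B cells were read at 39.7 CPM or more in each replicate. Their sums were 9089 and 9443 CPM, of which CD74 alone made up 7766 and 8088 CPM. Of 14 markers of T, myeloid, erythroid, liver and fibroblast cells, 8 had 0 reads in both replicates and the highest count was 16 reads, of CD3E in replicate 2.

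The sister gene OAZ2, a second broadly expressed antizyme, also had a 5-exon NIC model as its most-read spliced model, at far fewer reads and below 50% of the gene. OAZ2 (ENSG00000180304.14, chromosome 15, 64687573 to 64703281, minus strand) has 9 annotated models, and 3 of its 4 protein-coding models have the 1-base gap, at position 64691515. It had 94 reads in replicate 1 and 64 in replicate 2. Its largest spliced model was the NIC model ENCODEHT000319392, with 5 exons and 1869 bases, which had 39 reads, 41.5% of the gene (32.1 to 51.6%), and 15 reads, 23.4% (14.7 to 35.1%). OAZ2-201, with 6 exons, has 5 exons and 1935 bases once its gap is closed. Unlike OAZ1, OAZ2 had a genomic model of 1 exon and 913 bases with 33 and 36 reads, 35.1% (26.2 to 45.2%) and 56.3% (44.1 to 67.7%). Known models of OAZ2 had 2 and 0 reads, all in OAZ2-209.

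OAZ3 (ENSG00000143450.16, chromosome 1, 151762899 to 151771334, plus strand) had 1 read in replicate 1, in a 5-exon NIC model of 843 bases, and 0 in replicate 2, which allows up to 1.99 CPM. Of its 9 protein-coding models, 8 have a gap of 1 base. Thus all 3 antizyme genes had their gapped models at 0 reads, and in each the most-read spliced model was a 5-exon NIC model; for OAZ3 that rests on 1 read.

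Gapped models had no read in other genes either. GENCODE release 29 has 555 models with a gap of under 10 bases between exons, in 492 genes, and 231 of them have a gap of 1 base. None of the 555 had a read. In the 300 genes with such a model and any read, 346 gapped models had 0 reads, while 20981 of the 122052 other multi-exon models of genes with a read (17.2%) had at least 1. Among genes with at least 100 reads in each replicate, 0 of 48 gapped and 6277 of 18771 other multi-exon models (33.4%) had a read. The cause was not tested.

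Other genes with a gapped model had much smaller NIC shares than OAZ1. In the 42 genes with a gapped model and at least 100 reads in each replicate, NIC models held a median of 3.58% of reads in replicate 1 and 2.85% in replicate 2, beside 1.90% and 1.30% over all 1912 genes. Restricting to the 22 genes in which, as in OAZ1, a gap-closed chain is part of no annotated model gave medians of 5.93% and 3.47%; this subset was set after the values of OAZ1 were seen. Of the 42, only OAZ1 had over 25% of its reads in NIC models in both replicates, beside 23 of all 1912 genes. The other 22 genes over 25% were among the 1870 without a gapped model. The next of the 22 by the share of its largest NIC model was GPX4, a glutathione peroxidase, with 18.0% and 12.5%. That model has 6 exons, while the gap-closed chain of GPX4 has 7. In OAZ1 both numbers are 5.

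Few genes had a NIC model of comparable weight. The most abundant NIC model held over 50% of the reads of the gene in both replicates in 2 of the 1912 genes, OAZ1 and NME1-NME2, and the median share over all 1912 genes was 0.730% in replicate 1 and 0.410% in replicate 2. OAZ1 ranked first in replicate 1 and second in replicate 2. With a minimum of 20 reads in place of 100, 6 of 6340 genes passed, and with a share of over 25% in place of 50%, 12 of 1912 genes passed.

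The 5 genes nearest to OAZ1 in this share, by the larger of the differences in the 2 replicates, all had far fewer reads. NME1-NME2, an annotated readthrough gene over 2 nucleoside diphosphate kinase genes whose reads overlap those of its parts, had 78 of 107 reads (72.9%) and 87 of 123 reads (70.7%) in a 5-exon model. EMID1, which encodes a protein with an EMI domain, had 73.3% and 47.8%. UROS, an enzyme of haem synthesis, had 51.9% and 33.1%. IDH3G, a subunit of mitochondrial isocitrate dehydrogenase, had 51.2% and 38.3%, and RNF187, a RING finger protein, had 48.1% and 33.9%. None of the 5 has an annotated gap of under 10 bases, and in all 5 the share was lower in replicate 2, as in OAZ1. A lower share in replicate 2 was the common pattern: it was higher there in 25.1% of the 1912 genes, and the median difference was -0.168 percentage points. Likeness here is over 2 libraries of 1 cell line and only in this share.

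**Figure D4:**
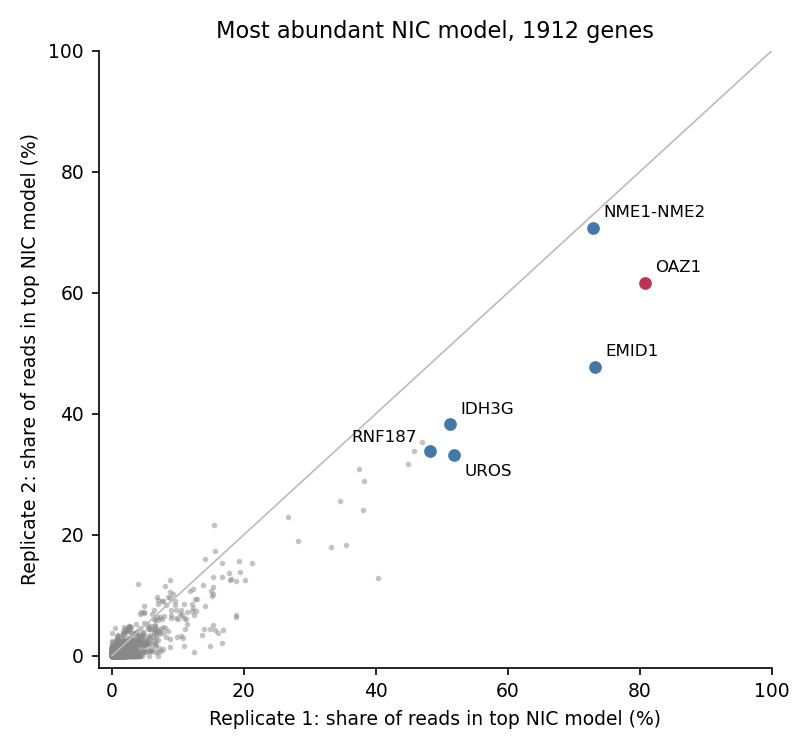
Share of the reads of a gene in its most abundant NIC model in replicate 1 (horizontal, %) and replicate 2 (vertical, %), 1 point per gene for 1912 genes with at least 100 reads in each replicate; the grey line marks equal shares. OAZ1 (red) lies at 80.8% and 61.7%, the 5 nearest genes are in blue, and most genes lie near 0.

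No other gene of the polyamine list with at least 20 reads in each replicate had as large a share in a single NIC model as OAZ1. Of the 25 genes of the list, 22 had a read, and 11 other than OAZ1 had at least 20 reads in each replicate and a NIC model. In these 11 the largest NIC model had a median share of 0.338% in replicate 1 and 0.725% in replicate 2, and the highest was that of OAZ2. All NIC models together held up to 14.0% and 6.15% in the others, in ATP13A2, a lysosomal polyamine exporter. ODC1, the decarboxylase that antizyme removes, had 54.1% of its reads in known models in replicate 1 and 27.0% in replicate 2, and NIC models held 4.73% and 3.58%. AZIN1, the antizyme inhibitor that binds antizyme in place of ornithine decarboxylase, had 1.71% and 2.40% in known models and 74.4% and 80.0% in genomic models.

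By level, OAZ1 stood second in the list with all models counted, and first with genomic models left out. EIF5A, the translation factor that carries hypusine, an amino acid made from spermidine, was at 1303 CPM in replicate 1 and 1193 in replicate 2, averaging 1248 ± 77.8 (SD, n = 2), and its range did not overlap that of OAZ1. Without genomic models, which held 27.4% and 34.8% of the EIF5A reads and none of those of OAZ1, EIF5A had 991 CPM ± 103 and OAZ1 1299 CPM ± 77.9 (SD, n = 2). With all models counted, ODC1 followed with 408 CPM ± 81.5, and SRM, spermidine synthase, with 375 CPM ± 87.4. These neighbours did not differ beyond their spread. MAT2A, which makes S-adenosylmethionine, had 111 CPM ± 11.2 and SMS, spermine synthase, 111 CPM ± 6.06, again within their spread. The next ranges overlapped in pairs: SLC3A2, a transporter subunit, had 86.5 CPM ± 6.88, AZIN1 84.4 CPM ± 2.32, OAZ2 55.7 CPM ± 18.9 and DHPS, which starts hypusine synthesis, 55.4 CPM ± 0.662. AMD1, which makes the aminopropyl donor, had 42.0 CPM ± 12.6. The catabolic genes SAT1, SAT2 and PAOX lay between 23.8 and 37.6 CPM on average, and AZIN2, SMOX and ARG1 had 0 reads in both replicates, where the limit is 2.21 and 1.99 CPM. The mRNA of antizyme was thus read 2.38 times as often as that of its target in replicate 1 and 3.27 times as often in replicate 2, in strands not divided by length. These ratios count genomic models, which held 6.62% and 14.7% of the ODC1 reads and none of those of OAZ1. Without genomic models ODC1 had 592 and 452 reads, beside 1506 and 1733 of OAZ1. The lower order also depended on genomic models. Without them MAT2A averaged 53.5 CPM against 128 for SMS, and AZIN1 22.2 CPM against 93.8 for SLC3A2.

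**Figure D5:**
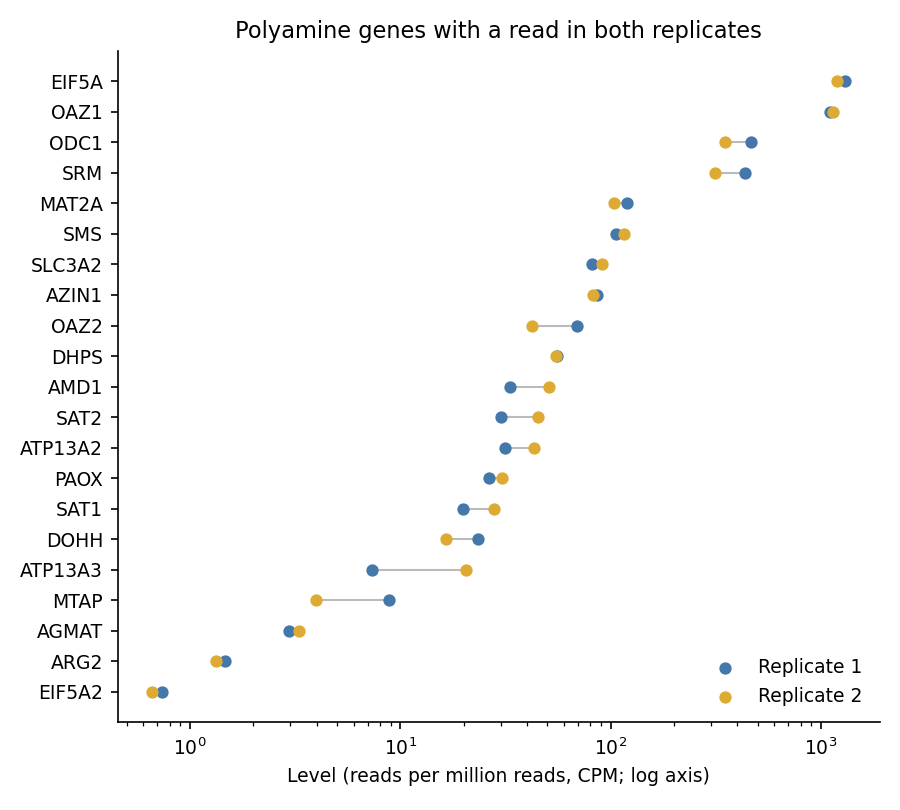
Level of each polyamine gene with a read in both replicates (21 genes), in CPM on a log axis, with replicate 1 in blue and replicate 2 in yellow joined by a line. OAZ1 and EIF5A lie at 1107 to 1303 CPM, above ODC1 and SRM, and OAZ1 has its 2 points close together.

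Between the libraries, 3 of the 17 tested polyamine genes other than OAZ1 passed an adjusted p of 0.05 in an exact binomial test of gene reads, beside 5.05% of all 10634 genes tested, and all 3 were lower in replicate 2. SRM had 594 and 473 reads, and its log2 ratio was -0.48 (exact binomial test, adjusted p = 6.04e-06). ODC1 had 634 and 530 reads, and its log2 ratio was -0.41 (exact binomial test, adjusted p = 0.000103). OAZ2 had 94 and 64 reads and a log2 ratio of -0.70 (exact binomial test, adjusted p = 0.0481), and its adjusted p ranged from 0.0043 to 0.0752 over the alternatives, so its call was lost under DESeq2 size factors and with no minimum count. The median log2 ratio of the 17 genes was -0.03, beside 0.01 for all genes tested. With genomic models left out, 5 of 16 genes passed, EIF5A and MAT2A being the additional ones, beside 723 of all 8758 genes tested. With TMM library sizes, 4 of 17 passed, EIF5A being the additional one, beside 560 of all 10634. This test sets the difference of 2 libraries against counting error alone, with reads taken as independent; it contains no estimate of the spread between libraries and compares no conditions.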

How the data were processed

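Raw counts of reads per transcript model were deposited by the authors in 1 table for both libraries, with the exon number and length of each model as other, unmeasured properties; its name shows that TALON made it. Per the submitters' processing notes, reads were aligned with minimap2 to hg38; versions, annotation release and read filters are not given in the sources used here. All 23533 known models matched GENCODE release 29 in identifier, exon number and length, so structures, positions and transcript sequences come from it. Columns were matched to samples by title.

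Shares have 95% Wilson intervals. CPM uses all reads of a library. Gene reads were compared between libraries over all genes with at least 10 reads together, by an exact binomial test (two-sided, expected share from the library sizes) with Benjamini-Hochberg adjustment (threshold 0.05; SciPy 1.17.1). The test was tried on simulated counts with counting error only, so that trial says nothing about spread between libraries. Log2 ratios add 0.5 reads to each count. With 1 group, edgeR has no contrast to test; edgeR 4.0.16 (TMM) and DESeq2 1.42.0 gave alternative scalings. Gaps are stretches of under 10 bases between annotated exons. Depth was 1360368 and 1510998 reads; 3 reads equal 2.21 and 1.99 CPM.

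Named were the known models of OAZ1, its models with 10 or more reads, a list of 25 polyamine genes and the 5 genes nearest to OAZ1 in the share of their largest NIC model; models and genes outside this rule were chosen after their values were seen. OAZ1 and the lists were chosen with earlier results of these data known.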

Additional observations from a re-analysis of the deposited data

How the results depend on the processing

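No paired analysis was possible because the libraries form 1 group. Each left-out replicate leaves the other one's value, which says nothing about stability: 61.7 to 80.8% for the dominant NIC model, 7.30 to 16.9% for known models, 5.25 to 15.5% for ISM models and 1107 to 1147 CPM for the gene. The 3 shares of OAZ1 moved by less than the SD of the replicates under every denominator tried (no genomic models, 2 or more exons, models with at least 5 reads, and, for the NIC model, known, NIC and NNC models only). Leaving genomic models out of the library totals raised the level of OAZ1 to 1299 CPM; no OAZ1 read is in such a model, so the change comes from the totals. EIF5A, at 991 CPM, was then below OAZ1. The polyamine genes passing the test numbered 5 in place of 3 without genomic models, with OAZ2, ODC1 and SRM kept; the cause was not tested. The number of genes with a dominant NIC model, 2 as reported, was 6 with 20 reads per gene, 12 with over 25% of reads, and 3 to 5 with a single replicate; OAZ1 was among them in each. Calls over all genes were 289 higher and 248 lower of 10634 tested, and 300 higher and 423 lower of 8758 tested without genomic models. Depth limits the NNC and minor NIC models of OAZ1, of which 27 rest on 1 read, and OAZ2, with 94 and 64 reads.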
